A study of Mus musculus with 4 samples.

Results

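Open chromatin around 6 Sox genes was described in posterior forelimb buds of the mouse. They are Sox9, Sox5 and Sox6, called chondrogenic here, and Sox4, Sox11 and Sox12, called progenitor genes. The 6 genes are 6 of 21938 protein-coding genes of the annotation (GENCODE M21, basic set). Every ATAC-seq peak in mm10 that overlapped the body of a gene or the 100 kb on either side of it was taken, which gave 101 of the 75101 peaks in 4 lists. After peaks that overlapped between libraries were joined, these made 51 of 44692 regions, of which 28 lay in the chondrogenic windows and 23 in the progenitor windows.

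SOX proteins bind the minor groove of DNA through an HMG box and bend it. SOX9 is required for mesenchymal cells to condense and become cartilage, and SOX5 and SOX6, which carry no activation domain of their own, bind with it at cartilage genes. SOX4, SOX11 and SOX12 form the SoxC group of activators, which are active in many progenitor cells, among them the undifferentiated mesenchyme of the limb bud.

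ATAC-seq uses the Tn5 transposase to cut accessible DNA and to insert adapters for sequencing there. It was performed on 2 wild-type (WT) and 2 Shh-/- embryos at E10.5 (35 somites), to ask whether accessibility depends on Hedgehog signalling. Each library came from the pair of posterior forelimb fractions of 1 embryo, of which 5000 cells went into the reaction, and 18 PCR cycles followed. The embryos were on a Swiss Webster background, and the Shh-/- embryos were homozygous for a germline null allele of Shh, the gene of the ligand Sonic hedgehog, so that every cell of them lacked it. The fractions were not sorted, so that fewer open cells and less open chromatin per cell cannot be told apart.

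The number of peaks per list was 39080 (WT replicate 1), 11973 (WT replicate 2), 5589 (Shh-/- replicate 1) and 18459 (Shh-/- replicate 2). The lists hold no read counts, so the depth is unknown, and the absence of a call does not show closed chromatin. Over all protein-coding genes, the share with a called promoter was 60.4%, 39.2%, 17.3% and 51.3% in the 4 lists in the order above. Promoters of 7 limb mesenchyme genes were called 7, 4, 2 and 4 times in the same order. Prrx1, a homeobox gene of that mesenchyme, was called in every list, and Tbx5 and Hand2 in WT replicate 1 only. Promoters of 6 ectoderm genes were called 2, 0, 0 and 2 times, those of 6 endothelial genes 2, 1, 0 and 1 times and those of 5 blood genes 0, 0, 0 and 2 times. Promoters of 4 muscle progenitor genes were called 3, 1, 0 and 3 times and those of 4 neural crest genes 3, 0, 0 and 0 times. The endothelial markers Cdh5, Pecam1, Tek and Sox17 and the ectodermal markers Trp63, Krt5 and Fgf8 were called in no list. Of the others, Kdr and Krt18 were called in WT replicate 1 and Shh-/- replicate 2, and Sox18 in both WT libraries. Krt8 was called in WT replicate 1 only and Epcam in Shh-/- replicate 2 only. The part of other cell types in the results was not tested. No list had a peak over exon 2 of Shh, so the peaks do not check the genotype labels.

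The gene records of the chondrogenic and the progenitor genes differ in form. Sox9 covers 5.54 kb of chr11 in 3 exons with 1 transcription start site (TSS). Sox5 spans 954 kb of chr6 and Sox6 spans 568 kb of chr7, with 5 and 6 annotated start sites in the basic set. Sox4 on chr13 (4.80 kb) and Sox11 on chr12 (8.31 kb) consist of a single exon, and Sox12 on chr2 covers 4.45 kb. Together the chondrogenic windows measured 2127 kb and the progenitor windows 618 kb. The Sox12 window is gene dense and holds 9 other protein-coding genes, the Sox6 window holds 3, and the other 4 windows hold none.

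Promoter sequences are shown for the genes whose own promoter was called in every library (2 kb before to 1 kb after a start site). The printed bases of Sox4, Sox11 and Sox12 overlapped a peak in all 4 libraries and those of Sox6 overlapped one in WT replicate 1 only. The RefSeq promoter table (GRCm38.p6, 250 bases before to 50 after a start site) matched 5 of the 6 members, all but Sox9. The sequences below read 5′ to 3′ along the gene, and capitals mark the CCAAT box on either strand (CCAAT or ATTGG).
Sox4, chr13:28953650-28953949, minus strand: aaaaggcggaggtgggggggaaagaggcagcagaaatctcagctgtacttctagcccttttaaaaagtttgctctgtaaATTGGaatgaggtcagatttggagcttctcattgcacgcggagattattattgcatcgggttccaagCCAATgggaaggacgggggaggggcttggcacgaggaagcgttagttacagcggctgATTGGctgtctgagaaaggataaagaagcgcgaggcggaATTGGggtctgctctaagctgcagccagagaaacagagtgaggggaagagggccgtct
Sox11, chr12:27342669-27342968, minus strand: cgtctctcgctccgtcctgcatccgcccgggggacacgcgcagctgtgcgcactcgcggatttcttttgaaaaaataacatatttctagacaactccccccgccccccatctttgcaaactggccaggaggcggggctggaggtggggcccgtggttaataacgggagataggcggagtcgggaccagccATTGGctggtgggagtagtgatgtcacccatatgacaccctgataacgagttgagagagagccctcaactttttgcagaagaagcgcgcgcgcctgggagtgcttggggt
Sox12, chr2:152397997-152398296, minus strand: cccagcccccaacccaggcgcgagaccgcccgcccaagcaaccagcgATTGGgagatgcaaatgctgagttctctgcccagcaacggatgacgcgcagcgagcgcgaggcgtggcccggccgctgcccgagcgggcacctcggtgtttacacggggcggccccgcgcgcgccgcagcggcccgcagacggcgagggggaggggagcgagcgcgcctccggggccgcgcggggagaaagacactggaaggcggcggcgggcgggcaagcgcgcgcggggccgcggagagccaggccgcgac
Sox6, chr7:116030998-116031297, minus strand: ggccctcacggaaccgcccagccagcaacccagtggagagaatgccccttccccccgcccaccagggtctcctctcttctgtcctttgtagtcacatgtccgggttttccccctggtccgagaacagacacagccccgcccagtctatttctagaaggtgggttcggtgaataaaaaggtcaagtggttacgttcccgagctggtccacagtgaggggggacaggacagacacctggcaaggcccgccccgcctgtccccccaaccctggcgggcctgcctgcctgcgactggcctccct

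The CCAAT box occurred 4 times in the Sox4 promoter, 1 time in that of Sox11 and 1 time in that of Sox12, and it was absent from these bases of Sox6. The table holds 6 entries for Sox6, and 3 of the other 5, none of them under a peak, held the box, at chr7:115846091-115846390 (4 times), chr7:115995037-115995336 (1 time) and chr7:115801560-115801859 (1 time). Of 32851 promoters of this length, 37.4% held it. The GC content was 76.7% for Sox12, above that of 97.3% of all promoters, and 63.3% for Sox6, 58.7% for Sox11 and 52.0% for Sox4, against a median of 52.7%. The ratio of observed to expected CpG was 1.07 for Sox12, 0.817 for Sox11, 0.679 for Sox4 and 0.443 for Sox6, with a median of 0.384 over all promoters. All 4 printed promoters thus lay above the median, that of Sox6 above 54.3% and that of Sox4 above 69.4% of all promoters. Another Sox6 entry, chr7:116038695-116038994, had a ratio of 0.672, close to that of Sox4. The only Sox5 entry, at chr6:143947057-143947356, had a GC content of 39.7% and lay under no peak of any list.

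The promoters of the progenitor genes were called in every library, while those of the chondrogenic genes were called in some. A promoter was the window from 2 kb before to 1 kb after a start site. Of the 12 pairs of a gene and a library in each group, the progenitor genes had a call in 12 and the chondrogenic genes in 7. Over all protein-coding genes, the share with a called promoter was 60.4% (WT replicate 1), 39.2% (WT replicate 2), 17.3% (Shh-/- replicate 1) and 51.3% (Shh-/- replicate 2), and 16.1% of genes were called in all 4. Of the members, 4 of 6 were called in all 4 libraries, which were Sox4, Sox11, Sox12 and Sox6.

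**Figure D1:**
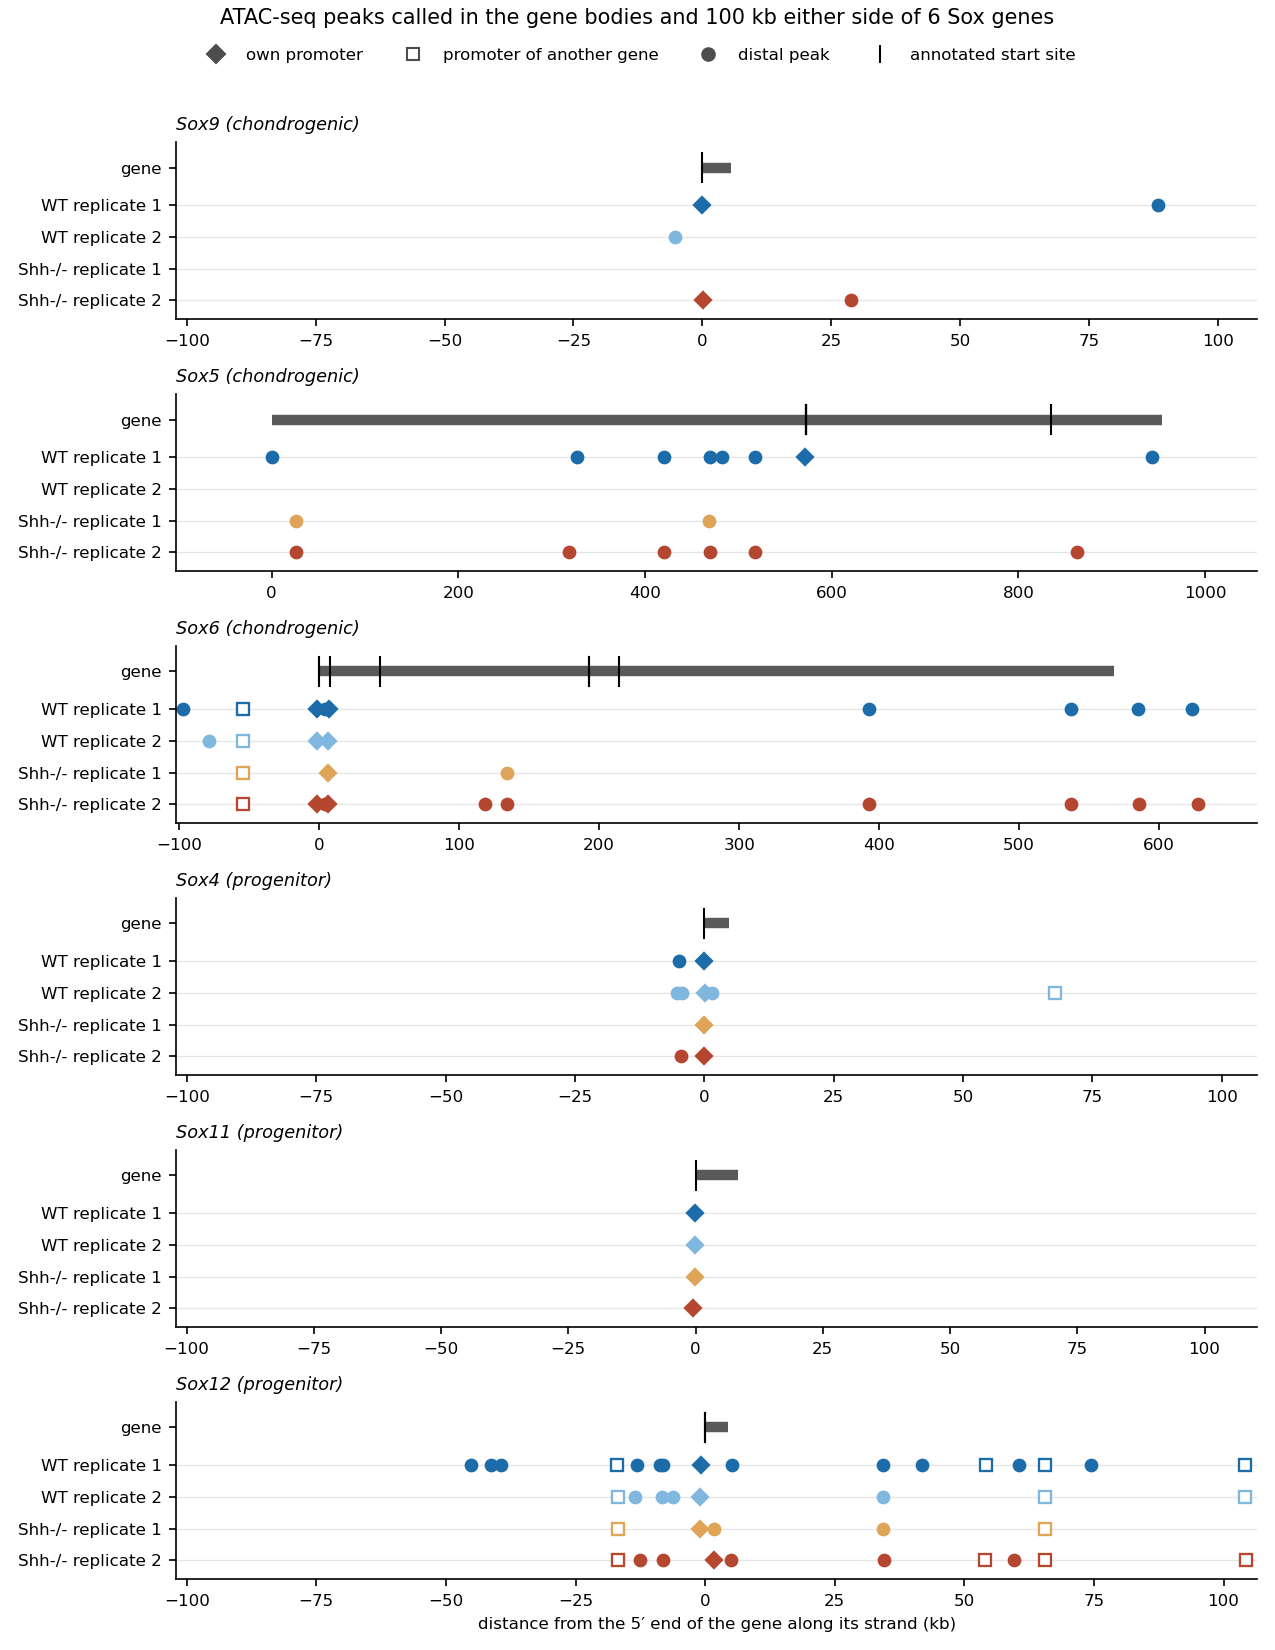
Position of the summit of every peak in the 6 windows, as distance in kb from the 5′ end of the gene along its strand, with 1 row per library. Diamonds are peaks in a promoter of the gene itself, open squares peaks in a promoter of another gene and circles distal peaks. Sox11 has 1 peak in each library, at its promoter, while the peaks of Sox5 are spread over the gene body.

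Sox9, the regulator of chondrogenic commitment, had a promoter peak in WT replicate 1 and Shh-/- replicate 2 and none in the other two libraries. The peak of WT replicate 1, chr11:112782022-112783076, was 1055 bp wide and had rank 8560 of 39080 by the score the peak caller gave it, where rank 1 is the highest score. The peak of Shh-/- replicate 2, chr11:112782047-112782578, was 532 bp wide and had rank 7378 of 18459. Their summits lay 24 bp before and 20 bp after the start site, so both calls sat on the start itself. The 2 libraries with a call have the 2 longest lists, and 1 library of each genotype was without one.

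Sox5 had a promoter peak in WT replicate 1 only, chr6:144210197-144211035, with rank 12431. This peak ended 629 bp before the nearest start site and did not reach it. With all 12 start sites of the full annotation, the promoter calls of Sox5 were the same 4 outcomes, although a further peak of WT replicate 1, chr6:144781752-144782183, then fell on a start site at the far 5′ end of the gene. At that end the basic set has no start site, and the peak had rank 27395.

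Sox6 was the chondrogenic gene with a promoter call in every library, in the region chr7:116030800-116032718. This region also overlapped a promoter window of another gene, Sox6os, so the call cannot be assigned to Sox6 alone. A further promoter region, chr7:116039709-116040421, upstream of the most distal start site, was called in 3 libraries and not in Shh-/- replicate 1. The best promoter peak over both regions had the ranks 11547 (WT replicate 1), 7359 (WT replicate 2), 4432 (Shh-/- replicate 1) and 10396 (Shh-/- replicate 2), the last of them in the further region. As a share of the list these ranks were 29.5%, 61.5%, 79.3% and 56.3%. Sox6 was called in the lower part of 3 of the lists, and in each library most called promoters ranked better: 28.8%, 21.2%, 12.8% and 22.2% of them ranked lower than that of Sox6. The wide peak of WT replicate 1 (1855 bp) reached over the start site, while the peaks of WT replicate 2 (236 bp) and Shh-/- replicate 1 (285 bp) lay 1409 bp and 1387 bp upstream of it at their nearer edge.

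Sox4, a SoxC activator of progenitor survival, was called in chr13:28952634-28954244. Its promoter peak had the ranks 4578 (WT replicate 1), 7822 (WT replicate 2), 1314 (Shh-/- replicate 1) and 3628 (Shh-/- replicate 2), or 11.7%, 65.3%, 23.5% and 19.7% of the list. WT replicate 2 stood apart with the lowest place, and the genotypes overlapped. Every summit lay within 147 bp of the start site.

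Sox11, a SoxC gene of undifferentiated and neural progenitors, had 1 promoter region, chr12:27341819-27343819. The ranks were 1488, 1428, 2181 and 2195 in the order of the libraries above, or 3.81%, 11.9%, 39.0% and 11.9% of the list. In Shh-/- replicate 1 the peak was 473 bp wide and ended 35 bp before the start site, against 2001 bp, 1240 bp and 1615 bp in the other libraries, where it crossed it. The shortest list thus had the narrowest call at Sox11.

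Sox12, also a SoxC gene, had the widest region, chr2:152395531-152399517, which took in the promoter and much of the coding exon. The ranks of its promoter peak were 849 (WT replicate 1), 774 (WT replicate 2), 2913 (Shh-/- replicate 1) and 1654 (Shh-/- replicate 2). The widths were 3885, 2974, 1082 and 3629 bp, and in each library the peak was wider than at least 98.0% of called promoters. In Shh-/- replicate 1 the region was called as 2 peaks, of which that in the coding exon, chr2:152396131-152396506, ranked better (1013). As a share of the list the promoter peak stood at 2.17%, 6.46%, 52.1% and 8.96%. The third of these places is that of the promoter-side part of the split region only, and the part in the exon stood at 18.1%. In Shh-/- replicate 2, where 1 peak covered both, its summit lay 1658 bp into the gene, close to the summit of that exon part (1701 bp). Both WT libraries thus stood ahead of both Shh-/- libraries at Sox12 by rank number and by share, also when the exon part is taken. With 2 libraries per genotype, this was not tested. The share of all called promoters with the same order was not counted, so the order cannot be called particular to Sox12. At Sox11 the rank numbers of both WT libraries were lower than those of both Shh-/- libraries, but by share of the list WT replicate 2 and Shh-/- replicate 2 were both at 11.9%.

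**Figure D2:**
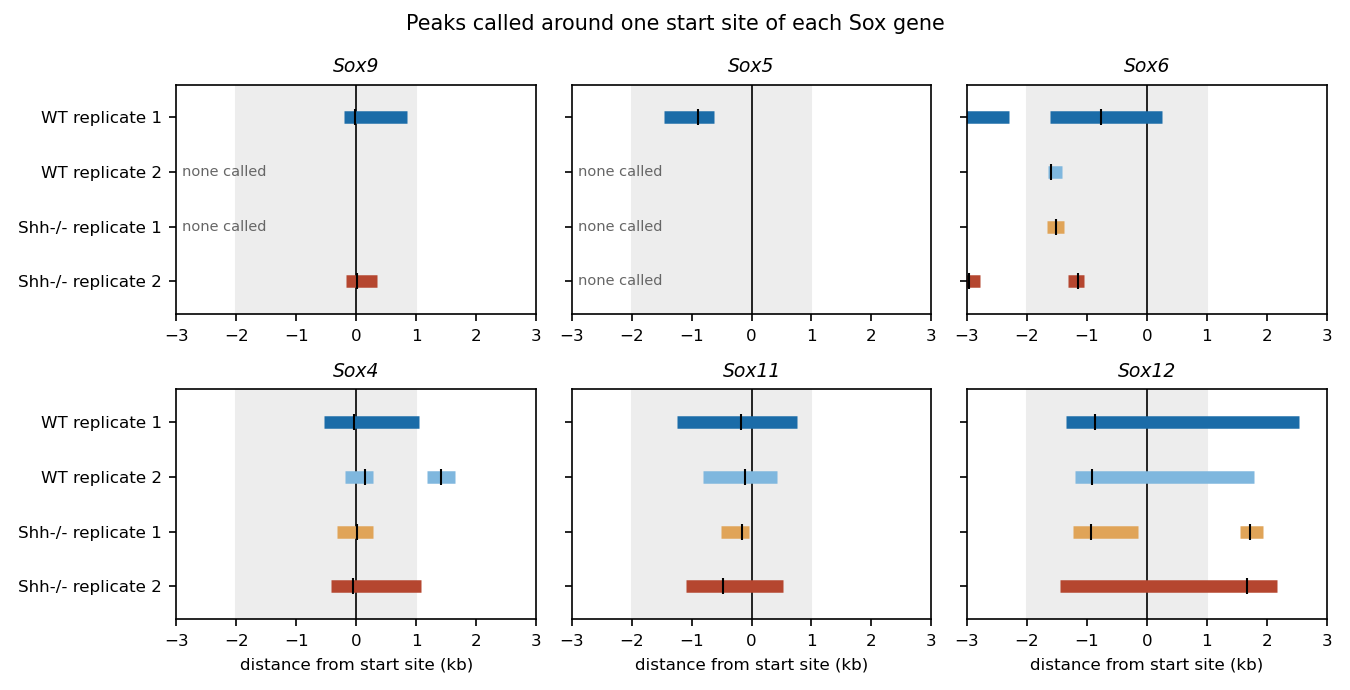
Extent of the peaks (bars) and their summits (black ticks) within 3 kb of a start site of each gene, in kb along its strand. The start site is that nearest to most of the gene's promoter peaks, and the grey band is the promoter window. Peaks of Sox4, Sox9, Sox11 and Sox12 cross or touch the start site in most libraries with a call, while those of Sox5 and Sox6 lie mainly upstream.

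In WT replicate 1, the only library where all 6 promoters were called, the order from the best rank was Sox12, Sox11, Sox4, Sox9, Sox6 and Sox5. The 3 progenitor genes also ranked above Sox9 and Sox6 in Shh-/- replicate 2. In WT replicate 2, Sox4 ranked below Sox6, and in Shh-/- replicate 1 all 3 ranked above Sox6. The median called promoter stood at 17.6%, 34.7%, 38.4% and 31.1% of the 4 lists. Progenitor promoters stood above that median in 9 of 12 pairs and chondrogenic promoters in 0 of 7. Sox12 in Shh-/- replicate 1 was counted with the promoter-side part of its split region (52.1%), while the exon part stood at 18.1%.

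**Figure D3:**
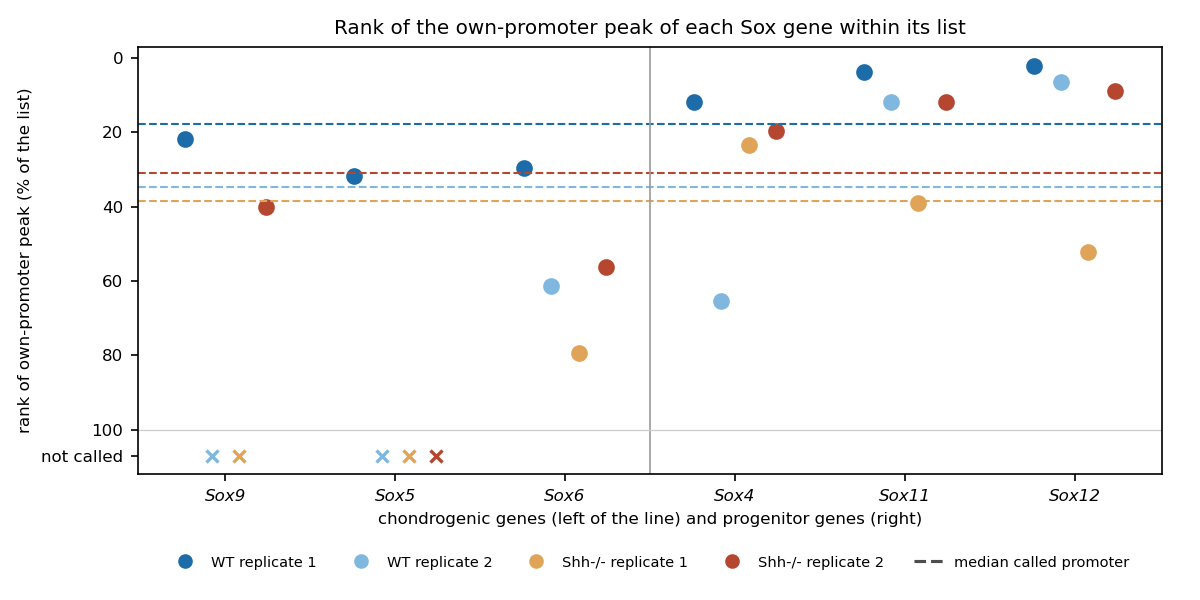
Rank of the best promoter peak of each gene as percent of its list (0 is the best score, the axis points down), with crosses for promoters that were not called. Dashed lines give the median called promoter of each library. The 7 chondrogenic calls lie below the line of their library, and 9 of the 12 progenitor calls lie above it. The point of Sox12 in Shh-/- replicate 1 is the promoter-side part of a split region.

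When each list was limited to its 5589 best peaks, the size of the shortest, the progenitor genes kept 11 promoter calls and the chondrogenic genes 1, the Sox6 call of Shh-/- replicate 1, whose list is used whole at that size. The lost progenitor call was that of Sox4 in WT replicate 2. With a narrower promoter window of 500 bp either side of the start site, the counts were 12 and 3. The calls of Sox5 and most of those of Sox6 thus depend on peaks that lie away from the start site.

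Of the 51 regions, 8 were called in all 4 libraries (15.7%), against 7.97% of all 44692 regions. They were 2 of the 28 chondrogenic regions and 6 of the 23 progenitor regions. Among them, 4 were the promoter regions of Sox6 (shared with Sox6os), Sox4, Sox11 and Sox12 given above. Another 3 were promoters of neighbouring genes: chr7:116092888-116093789 at 1110004F10Rik and 1700003G18Rik in the Sox6 window, and chr2:152332009-152333062 at Rbck1 and chr2:152413682-152415581 at Zcchc3 and 6820408C15Rik in the Sox12 window. Rbck1 encodes a subunit of the linear ubiquitin ligase. Of the 4 Sox12 regions called in every library, 2 therefore lay at promoters of other genes.

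The remaining region, chr2:152363517-152364079, was the only distal region of the 6 windows called in all 4 libraries. It lay 34.3 kb downstream of the start site of Sox12, in an intron of a noncoding transcript, and ranked 6318, 6033, 4261 and 13166. Its central bases, from chr2:152363601-152363801 on the strand of Sox12 and read from the mm10 assembly, are shown because it was the distal region with the most calls, and no SOX motif (AACAATG or AACAAAG, either strand) was found in them.
Sox12 distal region, minus strand: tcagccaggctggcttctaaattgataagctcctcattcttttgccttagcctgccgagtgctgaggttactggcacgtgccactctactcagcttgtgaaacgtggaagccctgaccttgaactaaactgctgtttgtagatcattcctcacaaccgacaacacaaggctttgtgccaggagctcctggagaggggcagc

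Over all regions, 17.7% of promoter regions and 1.73% of distal regions were called in all 4 libraries. In the chondrogenic windows these were 2 of 5 promoter regions and 0 of 23 distal regions. In the progenitor windows they were 5 of 8 promoter regions and 1 of 15 distal regions. Calls shared by every library were thus mainly promoters in both groups.

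Distal regions of the chondrogenic genes had most of their calls in the 2 longest lists, as did distal regions of the whole series. WT replicate 1 and Shh-/- replicate 2 had 14 each of the 23 distal regions (60.9%), WT replicate 2 had 2 (8.70%) and Shh-/- replicate 1 had 3 (13.0%). Of all 27184 distal regions, the 2 longest lists held 82.9% (WT replicate 1) and 23.8% (Shh-/- replicate 2), and the others held 11.6% (WT replicate 2) and 7.14% (Shh-/- replicate 1). Of the 28 regions in these windows, 15 lay in introns of Sox5 or Sox6, and 15 were called in 1 library only. Of all regions, 64.2% were called in a single library, against 51.0% of the 51.

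The best ranked distal region of Sox9 as a share of the list was chr11:112869792-112870675, 88.4 kb downstream, with rank 17588 in WT replicate 1 alone. The other distal peaks of Sox9 were 1 in WT replicate 2, 5.36 kb upstream, and 1 in Shh-/- replicate 2, 28.9 kb downstream. No distal region of Sox9 was called in more than 1 library, and Shh-/- replicate 1 had no peak in the whole window.

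Sox5 had 10 intronic regions. The best ranked as a share of the list was chr6:144264345-144264872, with rank 9399 in WT replicate 1 (24.1%) and 12252 in Shh-/- replicate 2 (66.4%). The most widely called was chr6:144312501-144313399, 103 kb upstream of the nearest basic start site, with the ranks 10703 (WT replicate 1), 1534 (Shh-/- replicate 1) and 5168 (Shh-/- replicate 2). As a share of the list these places were 27.4%, 27.4% and 28.0%, nearly the same in the 3 libraries, and WT replicate 2 had no peak in the whole Sox5 window.

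In the Sox6 window, the best ranked distal region was chr7:116033345-116034925, with rank 10049 in WT replicate 1 (25.7%) and 11263 in Shh-/- replicate 2. Its summit lay 3.41 kb upstream of a basic start site and 60 bp from a start site of the full annotation. It is thus distal in the basic set only. Besides it, 3 further distal regions of the Sox6 window were called in WT replicate 1 and Shh-/- replicate 2 alone.

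No region of the 6 windows was WT-specific, meaning a call in both libraries of that genotype and in neither of the other, where 2.09% of all regions were. Shh-specific regions, the reverse pattern, numbered 2 of 51, against 0.396% of all regions (177 regions). They were chr6:144756067-144756520 in an intron of Sox5, with the ranks 3880 (Shh-/- replicate 1) and 10358 (Shh-/- replicate 2), and chr7:115904655-115905100 in an intron of Sox6, with ranks 3038 and 10395. Both stood between 54.4% and 69.4% of their lists, and both lay in chondrogenic genes. At equal list size neither was left, since both ranked below 5589 in Shh-/- replicate 2. The 1 Shh-specific region counted at that size was the Sox5 region at chr6:144312501-144313399, whose call in WT replicate 1 had rank 10703.

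These 3 intronic regions had few G and C bases. The GC content of the 201 bases around the summit was 38.8% in the Sox5 region at chr6:144756067-144756520, 34.3% in the Sox6 region and 31.8% in the Sox5 region at chr6:144312501-144313399. Only 1.90%, 0.465% and 0.170% of all regions had a lower GC content. Over the whole series, the 177 Shh-specific regions had a median of 41.3%, the 934 WT-specific regions 58.2% and all regions 55.7%. The GC content of the 2 Sox regions thus lay below the median of their pattern, and its part in the calls was not tested. The bases of the first 2 are printed because those regions were Shh-specific. The third, also called in WT replicate 1, does not separate the genotypes and is printed as the Sox5 region with the most calls and the lowest GC content of the 3. An exact copy of either SOX motif searched (AACAATG or AACAAAG, on either strand) would be in capitals, and none was found.
Sox5 intron, chr6:144756218-144756418, minus strand: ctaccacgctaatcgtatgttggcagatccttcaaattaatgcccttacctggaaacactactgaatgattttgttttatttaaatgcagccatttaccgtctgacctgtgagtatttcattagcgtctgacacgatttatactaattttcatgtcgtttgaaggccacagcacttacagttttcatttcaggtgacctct
Sox6 intron, chr7:115904843-115905043, minus strand: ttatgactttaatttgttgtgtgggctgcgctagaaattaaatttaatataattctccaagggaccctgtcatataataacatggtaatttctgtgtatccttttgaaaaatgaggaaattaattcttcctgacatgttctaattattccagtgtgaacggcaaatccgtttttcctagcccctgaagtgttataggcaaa
Sox5 intron, chr6:144312655-144312855, minus strand: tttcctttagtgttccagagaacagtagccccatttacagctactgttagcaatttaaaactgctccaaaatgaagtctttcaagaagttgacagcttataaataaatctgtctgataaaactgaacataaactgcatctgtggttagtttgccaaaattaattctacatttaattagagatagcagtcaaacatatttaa

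SOX motifs were searched around the summit of every region. AACAAAG was found in 4 of the 51 regions and AACAATG in 2, where 3.28% and 1.69% of all 44692 regions held them. A Sox6 intronic region, chr7:115645465-115645942, singled out after its sequence was seen, was the only one of the 51 with 2 copies of AACAAAG, in opposite orientation. It was called in WT replicate 1 (rank 12482) and Shh-/- replicate 2 (rank 9631). GLI proteins, the transcription factors of Hedgehog signalling, bind TGGGTGGTC, which occurred in 0 of the 51 regions without a mismatch (0.309% of all regions) and in 2 with at most 1 mismatch (5.65%).
Sox6 intron, chr7:115645695-115645895, minus strand: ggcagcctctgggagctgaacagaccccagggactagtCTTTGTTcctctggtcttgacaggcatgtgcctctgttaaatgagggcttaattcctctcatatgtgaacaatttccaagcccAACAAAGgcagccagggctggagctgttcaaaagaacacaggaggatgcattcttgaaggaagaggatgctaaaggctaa

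**Figure D4:**
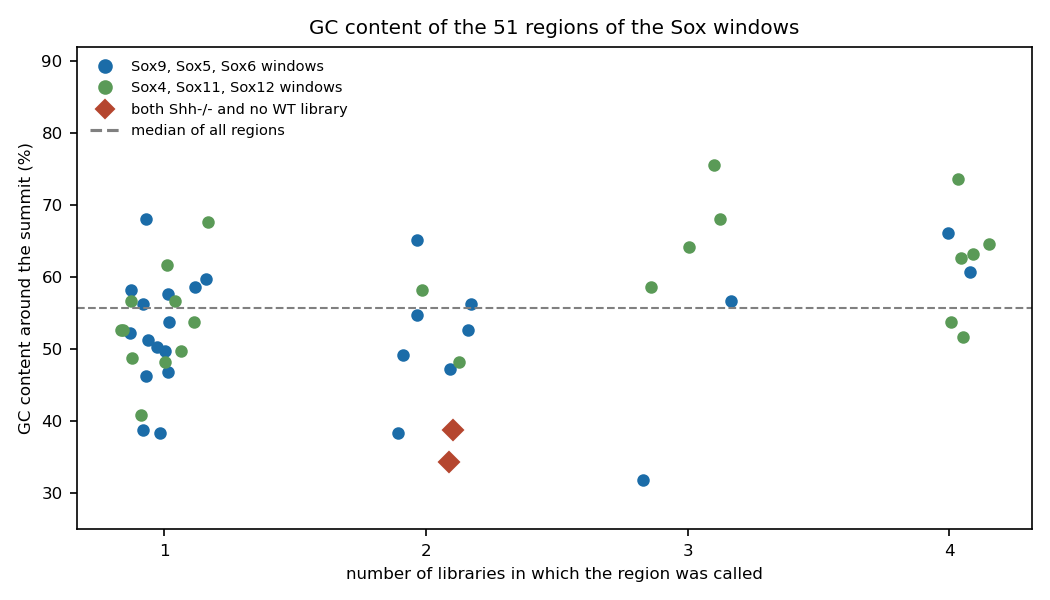
GC content in percent of the 201 bases around the summit of each of the 51 regions, by the number of libraries in which the region was called. Points are spread sideways for visibility, diamonds are the 2 Shh-specific regions, and the dashed line is the median of all regions (55.7%). The 8 regions called in all 4 libraries lie between 51.7% and 73.6%.

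Distal regions of the progenitor genes were fewer near Sox4 and Sox11 than in the Sox12 window. Sox11 had none in any library. Sox4 had a region in its exon, chr13:28952072-28952536, called in WT replicate 2 only (rank 9193). A further Sox4 region 4.86 kb upstream, chr13:28957791-28958927, was called in both WT libraries (ranks 8585 and 9194) and in Shh-/- replicate 2 (rank 12759). Its share of the list was 22.0%, 76.8% and 69.1%. In the Sox12 window, chr2:152405911-152406457 and chr2:152410409-152411664, 8.25 kb and 13.1 kb upstream, were called in the same 3 libraries. Regions missing from Shh-/- replicate 1 alone, the library with the shortest list, numbered 1 in the Sox4 window, 3 in that of Sox12 and 1 in that of Sox6. Whichever library was missing, 6 of the 51 regions were called in exactly 3 libraries, against 6095 of all 44692 regions.

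The number of peaks per window varied between the libraries and between the genes. Sox9 had 2, 1, 0 and 2 peaks, Sox5 had 8, 0, 2 and 6 and Sox6 had 9, 4, 3 and 11 in the order WT replicate 1, WT replicate 2, Shh-/- replicate 1, Shh-/- replicate 2. Sox4 had 2, 5, 1 and 2 peaks, Sox11 had 1 in each library and Sox12 had 16, 8, 5 and 10. For each of the 6 genes the counts of the genotypes overlapped or were equal.

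Per 100 kb, the chondrogenic windows held 0.893, 0.235, 0.235 and 0.893 peaks and the progenitor windows 3.08, 2.27, 1.13 and 2.11. The chondrogenic windows were lower in 4 of 4 libraries, by 1.58 ± 0.624 peaks per 100 kb (SD over libraries, n = 4; exact sign-flip permutation test, two-sided, p = 0.125, the smallest value that 4 libraries allow, adjusted p = 0.375 over 3 tests). The difference (chondrogenic minus progenitor) ran from -16.6 to -0.608 with other windows or limits on the lists, in the same direction in each. The value of -16.6 came from gene bodies alone. It sets short progenitor genes with called promoters against the long genes Sox5 (954 kb) and Sox6 (568 kb), so its sign says little about the windows. The difference rested on the Sox12 window. Without it, the chondrogenic windows were lower in 2 of 4 libraries, by 0.283 ± 0.653 (exact sign-flip permutation test, p = 0.625). The median of all protein-coding genes was 1.95, 0.853, 0.375 and 1.25 peaks per 100 kb, and Sox12 alone stood at 7.83, 3.91, 2.45 and 4.89.

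**Figure D5:**
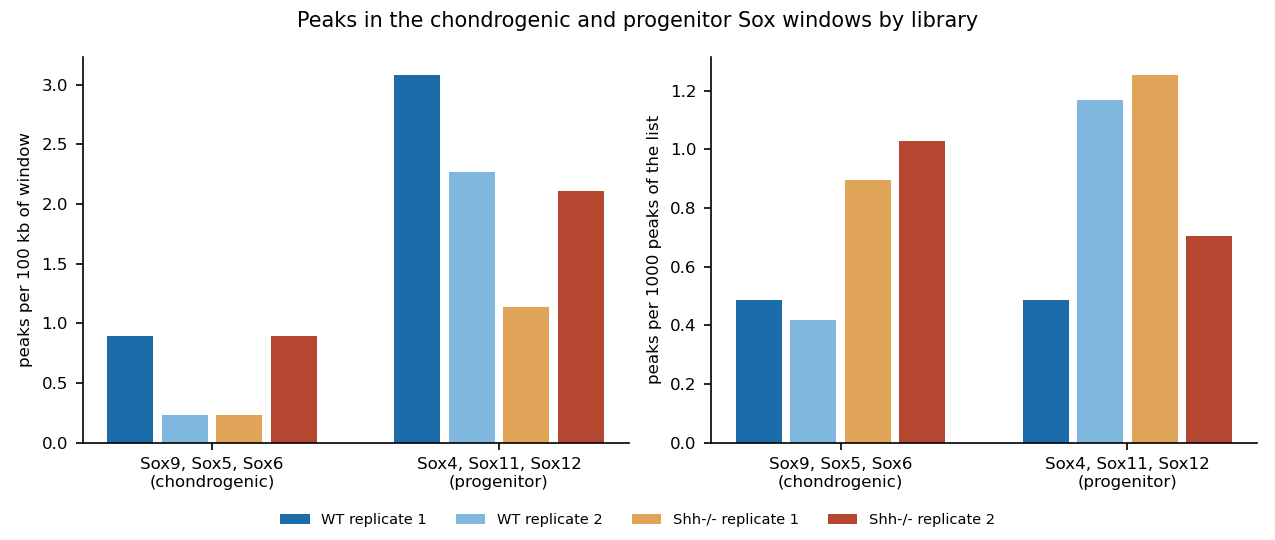
Peaks in the 3 chondrogenic and the 3 progenitor windows of each library, per 100 kb of window (left) and per 1000 peaks of the list (right), with both axes from 0. Each bar is 1 library and there are no error bars. The progenitor bars are higher on the left in all 4 libraries, and on the right the Shh-/- bars of the chondrogenic windows are higher than the WT bars.

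Relative to the length of each list, the chondrogenic windows held more peaks in Shh-/- than in WT. They held 0.486 and 0.418 peaks per 1000 peaks of the list in WT and 0.895 and 1.03 in Shh-/-. The means were 0.452 ± 0.0485 in WT and 0.962 ± 0.0952 in Shh-/- (SD, n = 2; exact permutation test, two-sided, p = 0.333, the smallest value possible, adjusted p = 0.5). The values of the genotypes did not overlap, but the design cannot pass 0.05. WT replicate 1 and Shh-/- replicate 2 held the same number of chondrogenic peaks, 19. WT replicate 2 and Shh-/- replicate 1 likewise held 5. Within each of these pairs, the whole-list ratios thus differed only by list length. At equal list size, the chondrogenic windows held 1 and 1 peaks in WT and 5 and 2 in Shh-/- (replicates 1 and 2). The difference (WT minus Shh-/-) was then -0.447 peaks per 1000, against -0.510 with whole lists. The list of Shh-/- replicate 1 is used whole at that size, and the cause of the difference was not tested. With whole lists, the progenitor windows held 0.486 and 1.17 peaks per 1000 in WT and 1.25 and 0.704 in Shh-/-. The means were 0.828 ± 0.483 and 0.978 ± 0.388 (SD, n = 2; exact permutation test, two-sided, p = 0.667), a difference within the spread between replicates.

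The promoters of the 13 other Sox genes were called 12, 2, 1 and 5 times in the 4 libraries, and none in all 4. Over all protein-coding genes the shares were 60.4%, 39.2%, 17.3% and 51.3%, and 16.1% were called in all 4. Sox18, a gene of endothelial cells, was the only one of the 13 with a WT-specific call, at 29.0% and 91.7% of the 2 WT lists. That pattern was held by 1.53% of protein-coding genes. The opposite pattern was held by 0.00456% of genes (1 gene) and by none of the Sox genes. Each of the 3 progenitor members was called in all 4 libraries, where none of these 13 genes was.

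Promoters of 20 cartilage genes, many of them targets of SOX9, SOX5 and SOX6, were called 17, 6, 2 and 10 times. Col11a1, which encodes a chain of the fibrillar type XI collagen of cartilage, was the only one called in all 4 libraries, at 5.53%, 26.2%, 41.4% and 25.7% of the list. The calls of Col9a2, Runx2 and Runx3 were WT-specific, a pattern of 1.53% of all protein-coding genes. They stood at 29.1%, 46.5% and 48.3% of the list in WT replicate 1 and at 70.0%, 49.4% and 81.9% in WT replicate 2. Col9a2 encodes a chain of type IX collagen, and Runx2 and Runx3 encode transcription factors of chondrocyte maturation. Among the limb mesenchyme genes, Prrx2 had a WT-specific call as well, at 21.1% of the list in WT replicate 1 and 68.2% in WT replicate 2. The calls of the cartilage genes per library (17, 6, 2 and 10 of 20) were ordered like those of all protein-coding genes.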

How the data were processed

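The authors performed ATAC-seq on the posterior forelimb fractions of 2 embryos of each genotype, WT and Shh-/-. The submitters' processing notes name Bowtie2 2.2.5, MACS2 2.1.0 and mm10. Per the methods of the study, peaks were called at a q-value cutoff of 0.05 with a window of 200 bp. Read filters and any shift of reads for the Tn5 cut are not given in the sources used here. The authors deposited 1 peak list per library, so replicates were not pooled. The deposited score of each peak has no stated scale and was used only to rank peaks within its own list, with ties ordered by position. Fold, p-value and q-value columns were filled with 0. The limma fit to signal in peaks that the study used needs counts and was not run.

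Libraries were grouped by the titles. Peaks of different lists sharing 1 bp or more were joined into regions, and 0 peaks ran past a chromosome end in GRCm38.p6. Promoters ran from 2 kb before to 1 kb after a TSS of GENCODE M21 (basic set), and all other regions were distal. Regions were assigned to a gene if they overlapped its body or 100 kb either side. Genotypes were compared by two-sided exact permutation tests over libraries (smallest p = 0.333), and the 2 groups of genes by an exact sign-flip permutation test over the 4 within-library differences. P-values were Benjamini-Hochberg adjusted over 3 tests. Counts over genes or regions carry no test. Python 3.11.15, numpy 2.4.6, pandas 2.3.3 and samtools 1.23.1 were used, and the counting was tested on simulated peaks. GC content and motifs (both strands) were read from 201 bases centred on the summit of each region's top peak.

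All 6 members were named. Coordinates were given for promoter regions of the members, regions called in all 4 libraries or in both libraries of 1 genotype alone, and the best ranked distal regions. The members and gene lists were chosen with earlier results of these data known. The alternatives were equal list size, a score of at least 50, windows of 50 and 250 kb, the gene body alone, summits only, no promoters of other genes, a promoter window of 500 bp, the most upstream TSS, merging within 200 bp, leaving out each library and the replicate block. Added after seeing the data were all annotated transcripts, crossed replicate numbers and leaving out each gene window.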

Additional observations from a re-analysis of the deposited data

How the results depend on the processing

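The 2 differences per 1000 peaks and the difference per 100 kb are values that could not pass 0.05 with 4 libraries, so their tests say nothing about stability. The progenitor promoters were called in 11 or 12 of 12 pairs under every setting with 4 libraries. At equal list size there was 1 chondrogenic promoter call, 1 region called in both Shh-/- libraries only and 5 regions called in all 4 libraries. With a score of at least 50, with the gene body alone and without promoters of other genes, 4 regions were called in all 4 libraries. With 250 kb either side, 2 regions were called in both WT libraries only. With a promoter window of 500 bp there were 3 chondrogenic promoter calls.

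When 1 library was left out, the chondrogenic promoter calls were 4 to 6, the regions called only in WT 0 to 15, those called only in Shh-/- 2 to 8 and those called in every library 7 to 13. The progenitor difference per 1000 peaks (WT minus Shh-/-) ran from -0.492 to 0.191, and it reversed to 0.191 without WT replicate 1 and to 0.124 without Shh-/- replicate 1. The regions called only in WT were 15 without WT replicate 2, 6 without WT replicate 1 and 5 without Shh-/- replicate 2, and those called only in Shh-/- were 8 without Shh-/- replicate 1. The cause was not tested, beyond the smaller number of libraries that had to agree. The difference per 100 kb (chondrogenic minus progenitor, -1.58) was -16.6 with the gene body alone, which sets short progenitor genes against the long Sox5 and Sox6. It was -2.77 with 50 kb and -0.608 with 250 kb either side, -0.785 at equal list size and -0.955 with a score of at least 50. The direction was the same throughout. Leaving out the Sox12 window brought the difference per 100 kb to -0.283, and leaving out any other window gave -2.43 to -1.32.

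With the replicate block, the chondrogenic difference per 1000 peaks was -0.510 (exact permutation test, p = 0.5, the smallest possible) and the progenitor difference -0.151 (p = 1). Deviations of libraries with the same number correlated at -0.408 over the 6 genes and at -0.264 over all protein-coding genes, so libraries with the same number did not deviate together. With the numbers crossed, 0 of the 2 differences passed 0.05, as with the numbers as given. Depth is unknown from the lists, and list lengths limit every count of calls.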
